A study of Mus musculus with 3 samples.

Results

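The effect of the dose was examined by setting the macrophage array labelled 70 nmol of hexavalent chromium, Cr(VI), against the array labelled 35 nmol. These are 2 of the 3 arrays of the series. The third array, from mice given no chromium, was not used, so no value below says whether a gene differs from untreated cells. Each array stands for a group of 10 male Swiss albino mice aged 8 weeks. All mice of both groups had received 125 µg of lipopolysaccharide into the peritoneum on day 0, a bacterial product that draws macrophages there. On day 4 they received potassium dichromate (K2Cr2O7), 35 or 70 nmol by the protocol, in saline that also held 100 ng of the phorbol ester TPA. After 4 more days the peritoneal macrophages were collected by repeated lavage, and their total RNA was labelled with Cy3 for a 1-colour Agilent array. The labels do not settle whether the doses count chromium or the salt, nor whether each RNA was that of a single mouse or pooled. Both arrays carry LPS and TPA, so every difference described here was measured on top of those agents.

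Chromate enters cells through anion carriers and is reduced inside them to trivalent chromium, which binds DNA and is known to cause DNA lesions. Peritoneal macrophages fall into large resident cells, which depend on the transcription factor Gata6, and small cells that derive from blood monocytes. Interferons act on macrophages through STAT factors and interferon regulatory factors, which bind a short promoter sequence, the interferon-stimulated response element, and switch on antiviral genes.

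The level of a gene is the log2 processed signal minus the 75th percentile of its array, and a difference is the level at 70 nmol minus the level at 35 nmol, in log2 units throughout. With 1 array on each side there is no replicate check and no test, so the sizes below describe these arrays, and their number limits the precision. The scanner software marked 18910 of 41174 probes as well above background at 35 nmol and 18564 at 70 nmol. Where a probe was spotted several times, its spots had a median SD of 0.045 at 35 nmol (142 probes) and 0.034 at 70 nmol (140 probes). The scanner's own error of a difference had a median of 0.205, and different probes of a gene varied by a median SD of 0.10 (4073 genes). None of these covers the spread between animals. Both arrays lay on the same slide, where position and dose cannot be told apart. All 15 genes of the general macrophage list were well above background on both arrays, among them the growth factor receptor Csf1r, at 6.11 and 6.17.

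Between the doses most genes lay close together. The 70 nmol array was higher in interferon-stimulated genes and in the monocyte chemokines Ccl2, Ccl7, Ccl8 and Ccl12. It was also higher in matrix genes of fibroblasts, in globins and in genes of interstitial macrophages such as Cbr2, Folr2 and Lyve1. It was lower in genes of liver cells, of large peritoneal macrophages, of mast cells and eosinophils, and by smaller amounts in genes of mitosis. Of 12390 genes measured on both arrays, 11582 (93.5%) lay within 1.5-fold and the median difference was 0.0019, with an SD of 0.33. In all, 114 genes (0.92%) exceeded their 35 nmol level by 2-fold or more at 70 nmol, and 89 (0.718%) lay below it by 2-fold or more. Of these, 37 of the 114 and 19 of the 89 belong to any of the 69 gene lists. The lists hold 1360 different genes, but how many of the 12390 measured genes stand on them was not counted. These 2 counts therefore have no background share beside them. At 4-fold the counts were 6 and 8, and 4 genes were at least 8-fold lower while none was as much higher. Dim genes held more of these calls. With the genes in 4 equal groups by level, 3.91% of the dimmest differed 2-fold, against 0.516% of the brightest, and 70 of the 114 higher genes and 64 of the 89 lower ones were dimmer than the median detected probe on both arrays. Where a 2-fold gene had other measured probes, these differed the same way for 19 of 21 higher genes and 12 of 12 lower genes. With normexp background correction, which moves dim signals most, the counts were 39 and 20.

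**Figure D1:**
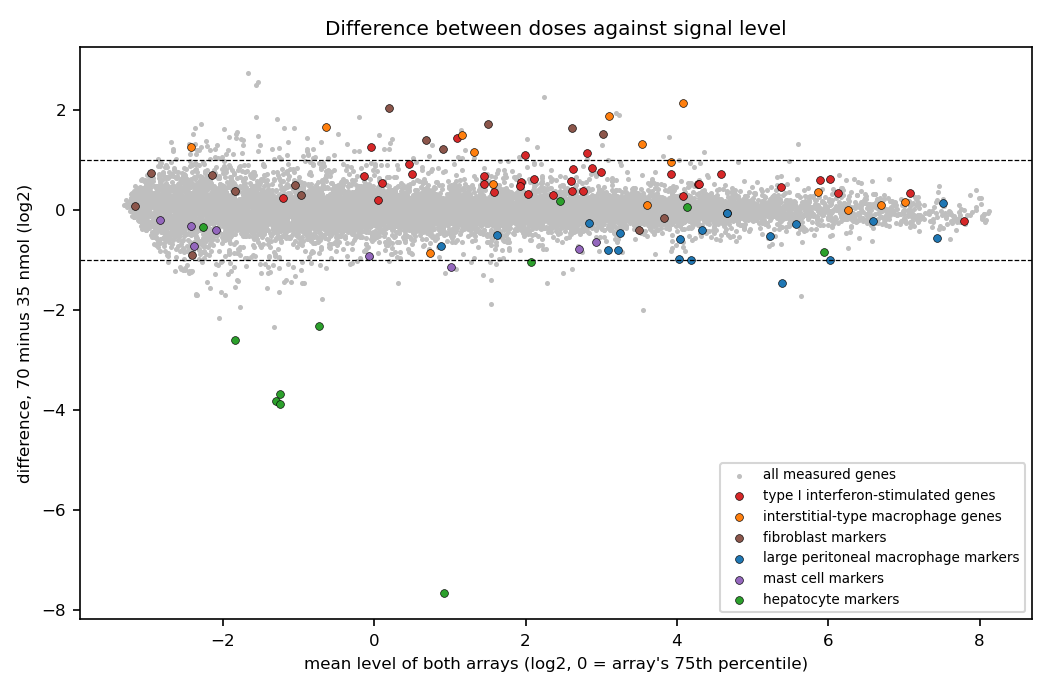
Each grey point is 1 of the 12390 genes measured on both arrays, with its mean level on the x axis (log2, 0 is the 75th percentile of an array) and the difference of 70 minus 35 nmol on the y axis (log2), and coloured points are members of 6 gene lists. The spread widens toward dim genes on the left, the dashed lines mark 2-fold, and 4 hepatocyte markers lie below -3.

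Nearly all type I interferon-stimulated genes were higher at 70 nmol. Their promoters are shown first, because the response element marks many of them. Windows of 300 bases around gene starts, from 250 before to 50 after, were taken from RefSeq on assembly GRCm38.p6 and searched on both strands for GAAA, any 2 bases and GAAA, a short form of the response element. It occurred in 1131 of all 32851 windows (3.44%), and in 326 of the 8904 measured genes that have a window (3.66%). Among type I interferon-stimulated genes 25 of the 35 measured members had a window, and 13 of these (52.0%) held it. Ifit2, with a difference of 1.27, was among those with a window and no match. Capitals mark the match nearest the gene start, joined with any that overlap it, and the 25 bases on either side are given where they lie within the window. In Rsad2, Ifit1 and Ifit3 the match is on the other strand and reads TTTC, 2 bases and TTTC. Only genes with a match are shown. Rsad2 and Isg15 were taken as list members with large differences at signals well above the floor. Oas3 was taken as an RNA sensor, Ifit1 and Ifit3 as neighbours on chromosome 19, and Cxcl10 as a chemokine with the element.
Rsad2: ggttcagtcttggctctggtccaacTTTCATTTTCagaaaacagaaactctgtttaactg
Isg15: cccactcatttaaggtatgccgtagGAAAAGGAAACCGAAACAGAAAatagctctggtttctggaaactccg
Oas3: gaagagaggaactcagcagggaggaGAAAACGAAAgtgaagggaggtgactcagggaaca
Ifit1: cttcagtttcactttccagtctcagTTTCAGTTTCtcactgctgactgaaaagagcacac
Ifit3: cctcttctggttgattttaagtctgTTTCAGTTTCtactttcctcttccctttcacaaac
Cxcl10: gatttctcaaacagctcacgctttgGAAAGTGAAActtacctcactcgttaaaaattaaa
The stretches lie on GRCm38.p6 at chr12:26456538-26456597 (minus strand) for Rsad2, chr4:156200850-156200921 (minus) for Isg15 and chr5:120777700-120777759 (minus) for Oas3. Those of Ifit1 and Ifit3 lie at chr19:34640779-34640838 and chr19:34583382-34583441 (both plus), and that of Cxcl10 at chr5:92349068-92349127 (minus). The capitals end 56 bases before the start of Isg15, which has 3 overlapping matches, 65 before Oas3, 75 before Ifit1, 110 before Rsad2, 112 before Ifit3 and 203 before Cxcl10. The windows of Ifit1 and Ifit3 each hold 2 matches, of which only the nearer is in capitals. A match describes the letters and does not show that a factor binds there.

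Of the 36 type I interferon-stimulated genes on the array, 35 were measured and only Oas1g was not well above background on either array. In this list 34 of 35 lay above the all-gene median, the list median was 0.57, and 4 were at least 2-fold higher, where 0.92% of all measured genes were. Rsad2, which makes the antiviral nucleotide ddhCTP and is known as viperin, lay at 0.36 on the 35 nmol array and 1.81 on the 70 nmol array, a difference of 1.45. A second Rsad2 probe differed by 0.73. Ifit2, which binds foreign RNA, lay at -0.68 and 0.59 (1.27), with a second probe at 1.48. Isg15, a ubiquitin-like protein attached to others after interferon, lay at 2.24 and 3.38 (1.14), and Oas3, which makes 2-5A in response to viral RNA, at 1.44 and 2.54 (2.14-fold). All of these were higher on the 70 nmol array, and each lay beyond the scanner error. With normexp Ifit2 differed by 0.96. The array design places the Isg15 probe on chromosome 17 of build mm8, whereas RefSeq places the gene on chromosome 4, so which copy the probe reads is uncertain.

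Ifit1 and Ifit3, named for their promoters after their values were seen, lay at 0.0040 and 0.93 and at 2.46 and 3.30, differences of 0.93 and 0.84. The list's lowest member, Ifi27l2a, also singled out after its value was seen, was bright on both arrays, at 7.90 and 7.69 (-0.20). Members with the response element in the window had a median difference of 0.64 (13 genes) and those without it 0.54 (12 genes), so the letters did not separate the list. Over all measured genes the median was 0.062 with the element (326 genes) and -0.0069 without (8578 genes). Of the 70 genes 2-fold higher that have a window, 4 (5.71%) held it, against 3.66% of all measured genes.

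Genes downstream of interferon gamma differed in the same direction by less. All 14 measured GTPases of the GBP and IRG families, which attack the vacuoles of intracellular microbes, lay above the all-gene median, with a list median of 0.32. Among those with a promoter window, 8 of 9 held the response element, and Ifi47, which differed most, did not. Ifi47 lay at 1.52 and 2.79 (1.27), Irgm1 at 3.39 and 3.90 (0.51) and Gbp6 at 0.65 and 1.15 (0.50). Ifi47 was the only one of the 14 that differed 2-fold, and the other 13 lay within 1.5-fold. Of all measured genes 0.92% were 2-fold higher. The chemokines that bind Cxcr3 and attract T cells were all higher, Cxcl10 at 1.15 and 1.80 (0.65), Cxcl9 at 2.08 and 2.51 (0.43) and the dim Cxcl11 at -2.92 and -1.94 (0.98). With normexp the median of these 3 above all genes was 0.39, against 0.65.

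**Figure D2:**
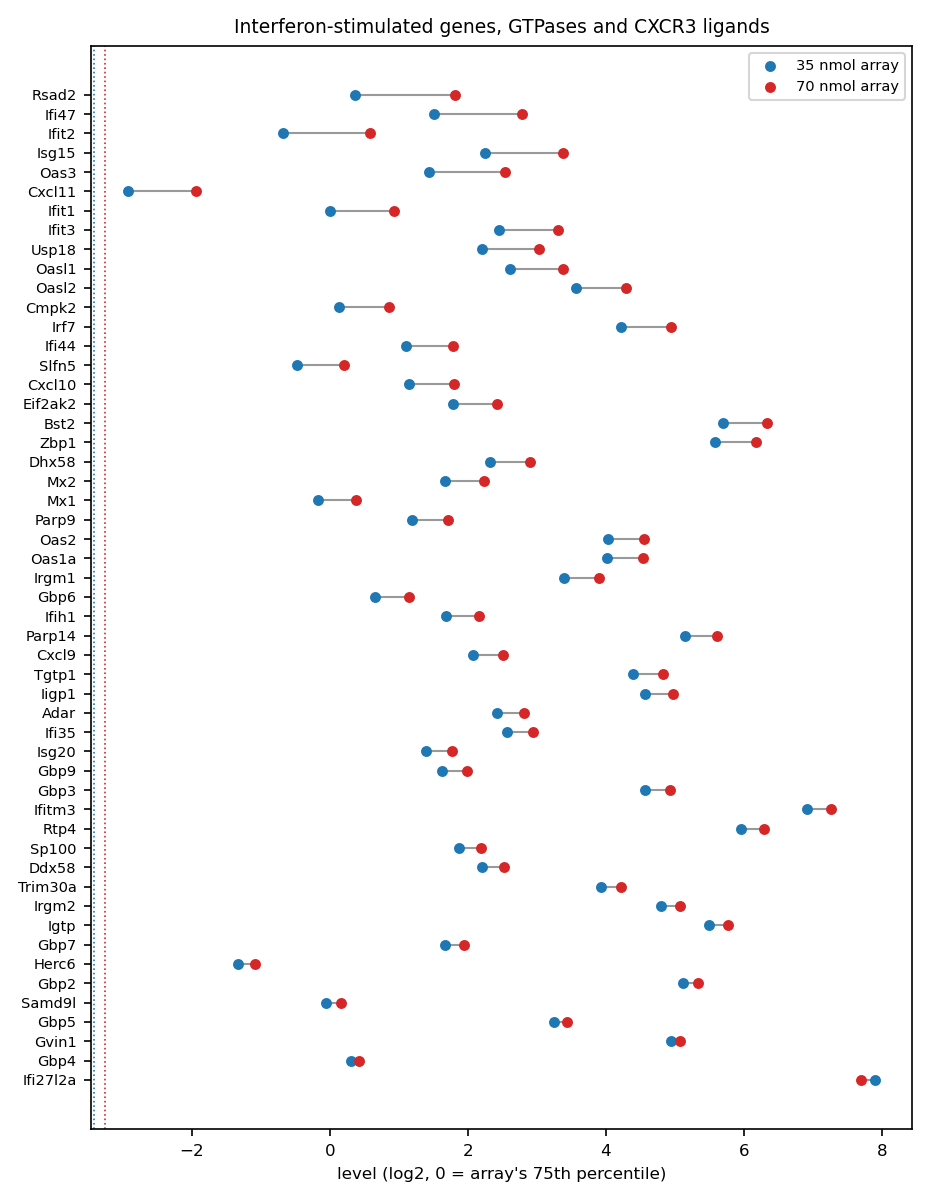
Levels (x axis, log2, 0 is the 75th percentile of an array) of the 52 measured type I interferon-stimulated genes, interferon-gamma-induced GTPases and CXCR3 ligands, 1 gene a row, on the 35 nmol array (blue) and the 70 nmol array (red). The red point lies to the right of the blue one in each row except that of Ifi27l2a at the bottom, and the dotted lines mark each array's lowest detected level.

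The factors that carry the interferon signal differed little. Irf7, itself induced by interferon, lay at 4.23 and 4.94 (0.72), while the median of the 8 measured interferon regulatory factors was 0.042 and Irf1 lay at 7.05 and 7.19 (0.14). Stat2, part of the complex that type I interferon activates, lay at 3.91 and 4.41 (0.50). The median of 19 STAT, SOCS, JAK and receptor genes was -0.014, and none of them differed 1.5-fold. Antigen presentation genes lay mostly above the all-gene median by small amounts, 8 of 11 for MHC class II and 9 of 11 for class I. The 11 measured MHC class II genes had a median of 0.16 and the 11 measured class I and immunoproteasome genes 0.12, with the peptide transporters Tap1 and Tap2 at 0.35 each. Another 3 and 4 members of these lists were saturated on an array and have no difference.

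The monocyte chemokines Ccl2, Ccl7, Ccl8 and Ccl12 were higher at 70 nmol, and an eosinophil chemokine was lower. Of 9 measured CC chemokines 3 were higher by 2-fold or more and 1 was lower by as much, against 0.92% and 0.718% of all measured genes. Ccl8, a ligand of Ccr2 and Ccr8 in the mouse, lay at -1.14 and 0.73 (1.86, 3.63-fold), with its probe on chromosome 11 from 81932801 to 81932860 on build mm8. Ccl12 lay at -1.89 and -0.24 (1.65) and Ccl7 at -3.16 and -1.64 (1.53), both ligands of Ccr2. These 3 genes neighbour each other in the same chemokine cluster as Ccl2, which lay at -0.28 and 0.62 (0.91, the mean of 10 and 9 spots). Ccl7 and Ccl12 were dim, and with normexp they differed by 0.58 and 0.99, while Ccl8 kept 1.36. The 4 measured CC chemokine genes with a promoter window, Ccl8, Ccl9, Ccl12 and Ccl17, did not hold the response element. Ccl2 and Ccl7 had no window and were not searched. The receptor Ccr2 differed by 0.58. Ccl24, which attracts eosinophils, went the other way, at 6.49 and 4.78 (-1.72, with -1.64 for a second probe). The brightest measured CC chemokine, Ccl5, named after its value was seen, lay at 7.17 and 7.04 (-0.13). Of the 9 measured, 6 lay above the all-gene median and 3 below.

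Inflammatory cytokines did not share a direction. Of 11 measured, 8 lay below the all-gene median and the list median was -0.15. Tnf, a first-line inflammatory cytokine, lay at -0.68 and -0.12 (0.56, 10 spots on each array) and Il1b at -1.29 and -0.94 (0.35). Il6 lay at -1.12 and -1.70 (-0.58) and Csf1, the macrophage growth factor, at 1.04 and 0.50 (-0.53). Nos2, the inducible nitric oxide synthase, was not well above background on either array. In the Toll-like receptor and NF-kB list 21 of 27 lay above the all-gene median by small amounts (median 0.13). The LPS receptor Tlr4 lay at 0.73 and 1.43 (0.70, 10 spots on each array), and its partner Ly96 at 2.02 and 2.56 (0.53).

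Genes of interstitial macrophages, which sit around vessels and in connective tissue, held some of the largest differences. Of 16 measured, 7 were at least 2-fold higher, against 0.92% of all measured genes, and the median was 0.75. Cbr2, a carbonyl reductase, lay at 3.01 and 5.15, a difference of 2.14 or 4.41-fold, with its probe on chromosome 11 from 120545601 to 120545660 (mm8). Folr2, a folate receptor, lay at 2.16 and 4.05 (1.89), and Lyve1, a hyaluronan receptor, at -1.46 and 0.20 (1.66). Gas6, the ligand of the receptors Axl and Mertk for apoptotic cells, lay at 0.41 and 1.92 and F13a1, a coagulation factor chain, at 2.88 and 4.20 (1.32). The mannose receptor Mrc1 lay at 0.73 and 1.90 (1.17) and the hemoglobin receptor Cd163 at -3.05 and -1.79 (1.26, or 0.54 with normexp). Maf, a transcription factor of these cells, lay at 3.44 and 4.40 (0.97). Not every member was higher, since Igf1, named after its value was seen, lay at 1.16 and 0.32 (-0.84). In bulk RNA a change in the number of such cells and a change in RNA per cell cannot be told apart, here and in the cell types below.

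Markers of large peritoneal macrophages were lower at 70 nmol. Of 18 measured, 17 lay below the all-gene median, the list median was -0.53, and 2 were at least 2-fold lower, against 0.718% of all measured genes. Alox15, a lipoxygenase of these cells, lay at 6.11 and 4.66 (-1.45), and Itga6, an integrin, at 6.53 and 5.53 (-1.00, with -0.98 and -0.88 for 2 other probes). Selp lay at 4.51 and 3.53 (-0.98, the mean of 10 and 8 spots) and Garnl3 at 4.68 and 3.70 (-0.99). Gata6 lay at 3.48 and 2.68 (-0.80). Its dimmer probes differed by -0.66 and 0.13, so they disagree in sign. Adgre1, a surface receptor used to mark macrophages, lay at 7.71 and 7.16 (-0.55), whereas F10, singled out as the 1 member above the median, lay at 7.45 and 7.60 (0.15). The summed signal of the list, in units of each array's 75th percentile, was 1211 at 35 nmol and 960 at 70 nmol. That sum includes the saturated Icam2, at 8.22 and 8.10, which has no measured difference. The general macrophage list had a median of 0.11, with the Fc receptor Fcgr1 at 0.42. Markers of small peritoneal macrophages and monocytes had a median of 0.14 over 11 measured genes, 7 above the all-gene median and 4 below. They ranged from Chil3 (-0.55) to F13a1 (1.32), which also stands on the interstitial list, with Clec4b1 at 1.25 and 2.00 (0.75).

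Genes of alternative activation, the state that interleukin 4 induces, did not share a direction. Of 19 measured, Cd163, Mrc1 and Pparg were 2-fold higher or more and Alox15 and Ccl24 2-fold lower or more, and the median was 0.096. Over all measured genes 0.92% were higher and 0.718% lower by that much. Pparg, a nuclear receptor for lipids, lay at -1.34 and -0.28 (1.05, the mean of 9 and 10 spots, or 0.66 with normexp). Arg1, arginase, lay at 4.11 and 4.17 (0.063) and Chil3, a chitinase-like protein, at 6.68 and 6.13 (-0.55).

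Fibroblast markers were higher at 70 nmol, and more of them were detected there. Of 24 on the array, 15 were well above background at 35 nmol and 20 at 70 nmol. The summed signal was 42.6 and 64.0, which includes the 5 members detected at 70 nmol only. Over all probes the detected shares were 45.9% and 45.1%, and 470 of 13663 detected genes were detected at 70 nmol only. Among 15 measured on both arrays 6 were at least 2-fold higher, against 0.92% of all measured genes, and the median was 0.71. The brightest probes of Col1a1, Col1a2 and Col3a1 lay well above the floor on both arrays. At 35 nmol that of Col1a1 lay below the median detected probe, 0.25. Col3a1 lay at 0.65 and 2.37 (1.72), Col1a2 at 1.79 and 3.44 (1.64) and Col1a1 at -0.024 and 1.39 (1.41, 10 spots on each array, with 1.13 for a second probe). Dcn, a proteoglycan that binds collagen, lay at 2.26 and 3.79 (1.53), and Fndc1, a fibronectin domain protein, at -0.83 and 1.22 (2.05). Col5a2, Col6a1, Col6a2, Lum and Pdgfra were well above background at 70 nmol only, and Fbn1, Mfap5, Dpt and Fap on neither array. Other members were lower. Postn, a matricellular protein, lay at -1.96 and -2.84 (-0.88), Thy1 lay at 3.90 and 3.75 (-0.15) and Pi16 at 3.70 and 3.30 (-0.39), and Thy1 and Pi16 were chosen after their values were seen. The list median above all genes ranged from 0.28 with normexp to 1.32 when dim probes were filtered more strictly, and the part of a different mix of cells in this result was not tested.

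Enzymes and regulators of the matrix were mixed. Loxl1, which cross-links elastin, lay at -2.65 and -1.19 (1.47), Timp1, an inhibitor of matrix proteases, at -0.86 and 0.33 (1.19) and Tgfb3 at -1.84 and -0.81 (1.03). All were dim, and with normexp they differed by 0.69, 0.83 and 0.57. Thbs1, thrombospondin, lay at 2.15 and 1.07 (-1.07, with -0.96 and -0.85 for 2 other probes). Of 16 mesothelial markers, 7 were well above background at 35 nmol and 10 at 70 nmol, against 45.9% and 45.1% of all probes. Krt19 lay at -2.54 and -1.48 (1.06) but Krt18 at -0.33 and -0.90 (-0.57), and the list median of 0.071 changed sign with the stricter filter. Of 17 endothelial markers 10 were not well above background on either array, among them the defining genes Cdh5 and Kdr.

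**Figure D3:**
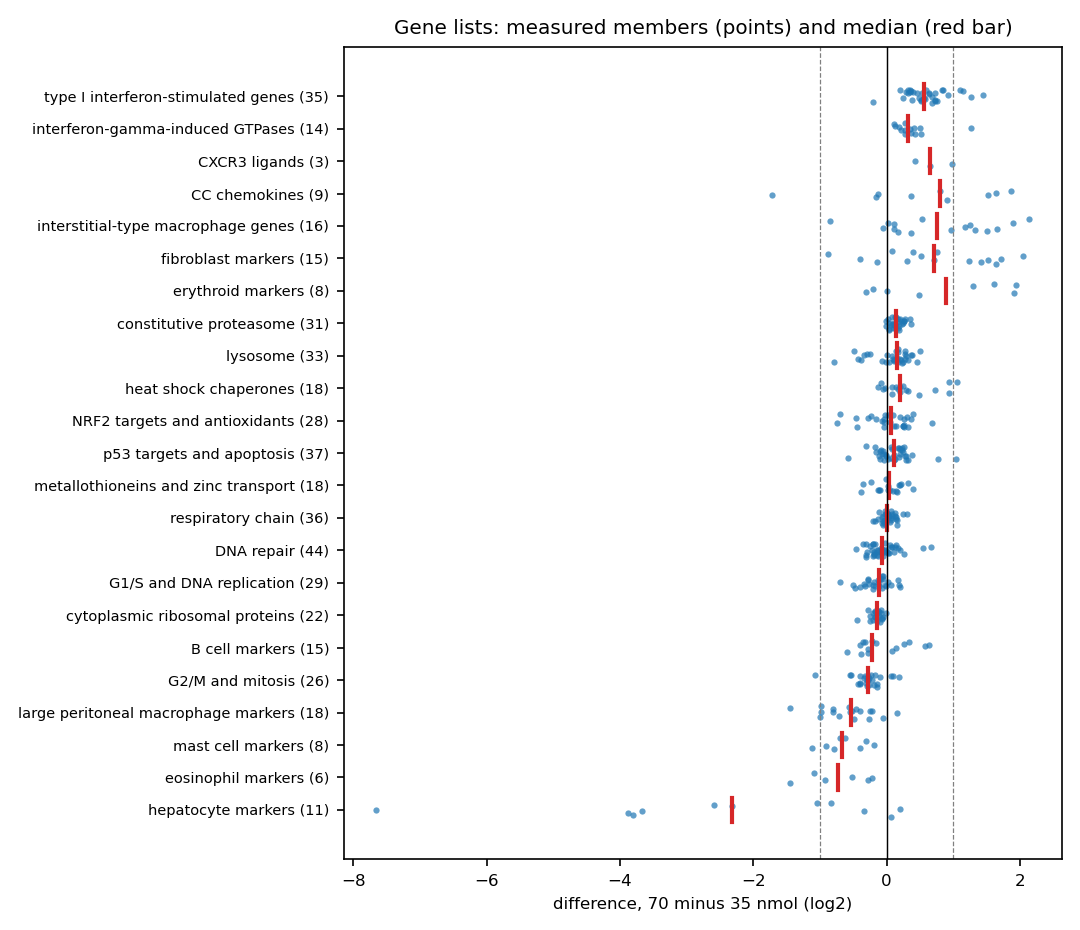
Differences of 70 minus 35 nmol (x axis, log2) for the measured members of 23 gene lists, 1 blue point a gene and a red bar at the list median, with the number of measured members in brackets and dashed lines at 2-fold. Most bars of function lists lie near 0, while hepatocyte markers reach -7.65 and the type I interferon-stimulated genes cluster around 0.57.

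Transcripts of liver cells were the lowest at 70 nmol. Albumin, Alb, the main protein of blood plasma, lay at 4.75 on the 35 nmol array and -2.90 on the 70 nmol array, a difference of -7.65 or 201-fold, with its probe on chromosome 5 from 91547772 to 91547831 (mm8). Of 49 hepatocyte markers on the array, 42 were well above background at 35 nmol and 11 at 70 nmol, and 31 were detected at 35 nmol only. Over all probes the detected shares were 45.9% and 45.1%, and 687 of 13663 detected genes were detected at 35 nmol only. Those 31 can only be given as bounds, which set the bright level against the lowest level well above background at 70 nmol, -3.26, or the gene's own level there if that is higher. Serpina1d, a protease inhibitor, was at least 135-fold lower, the fetuin Ahsg at least 108-fold, the fatty acid carrier Fabp1 at least 51.8-fold and the fibrinogen chain Fgb at least 37.4-fold. The retinol carrier Rbp4 was at least 33.2-fold lower and the apolipoprotein Apoa2 at least 21.5-fold. Of the 11 measured on both arrays 7 were lower at 70 nmol by 2-fold or more, against 0.718% of all measured genes, such as the cytochrome Cyp2d26 at 0.69 and -3.18 (-3.88), Fbp1 of gluconeogenesis at 0.59 and -3.08 (-3.68) and the glucagon receptor Gcgr at 0.44 and -1.88 (-2.32). Itih3, an inhibitor chain of plasma that also stands on the acute phase list, lay at -0.55 and -3.13 (-2.59).

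The sizes of several liver differences depend on the floor. Cyp2d26, Fbp1 and Serpina3m lay close to the lowest detectable level at 70 nmol, -3.26, and with normexp they differed by -2.31, -2.13 and -2.18, and Alb by -5.84. Cyp2d26, the Serpina genes, Mug1 and Ces1c have close relatives whose transcripts their probes may also bind. Of the 11 measured members of the hepatocyte list, 2 lay above the all-gene median. These were Arg1, given above, and Ass1, chosen after its value was seen, at 2.36 and 2.56 (0.19). Trf, also bright on both arrays, lay at 6.35 and 5.53 (-0.83). Other genes known for strong liver expression lay on further lists. The retinoic acid hydroxylase Cyp26a1 lay at -0.15 and -2.49 (-2.33), the epoxide hydrolase Ephx2 at -1.13 and -2.82 (-1.69), and complement factor Hc at -0.97 and -3.12 (-2.15). With normexp these 3 differed by -1.36, -0.71 and -0.97. Without the hepatocyte and erythroid lists, a choice made after seeing the data, 110 genes were 2-fold higher and 82 lower.

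In all, 687 genes were well above background at 35 nmol only and 470 at 70 nmol only. Most were near the floor, with median levels of -2.90 on the array that detected them in either case. The bound reached 4-fold for 59 of the 687 and 24 of the 470, and 8-fold for 24 and 3. On the 70 nmol side the largest bounds among genes with a RefSeq symbol were those of the odorant receptor Olfr1310, at least 7.13-fold higher, the serine protease Tmprss2, at least 6.46-fold, and the adaptor Sh2d1b1 of natural killer cells, at least 5.94-fold. Slc7a11, the cystine carrier controlled by NRF2 and Atf4, was at least 4.61-fold higher, and the basement membrane collagen Col15a1 at least 4.58-fold. With the software's weaker call of a significant signal in place of well above background, 1872 genes were on the 35 nmol array only and 1330 on the 70 nmol array only.

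**Figure D4:**
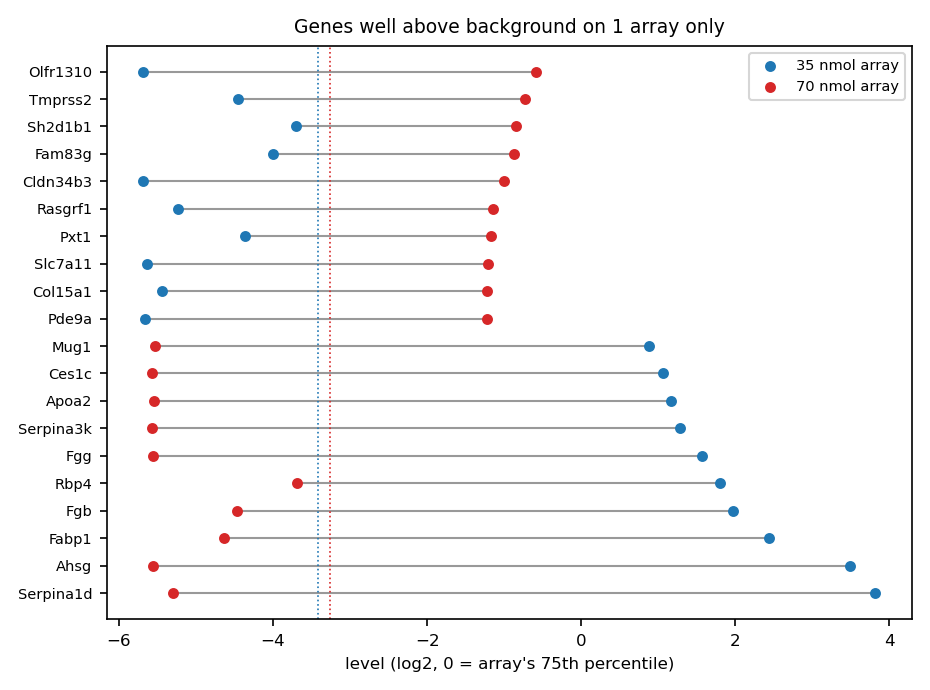
Levels (x axis, log2, 0 is the 75th percentile of an array) on the 35 nmol array (blue) and the 70 nmol array (red) of the 10 genes with a RefSeq symbol each way with the largest bound among those well above background on 1 array only, with dotted lines at each array's lowest detected level. The dim points lie at or left of these lines and have no measured level there, and the bright points of the liver genes at the bottom reach 3.82.

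Red cell transcripts were higher at 70 nmol. The protocol removed red cells before the cells were counted. Of 13 erythroid markers 8 were measured, 4 of them at least 2-fold higher, against 0.92% of all measured genes, and the summed signal was 19.9 at 35 nmol and 56.3 at 70 nmol. The alpha globins Hba-a2 and Hba-a1 lay at 2.22 and 4.16 (1.94) and at 2.28 and 4.19 (1.91), the beta globin Hbb-bt at 2.36 and 3.66 (1.30, with 1.06 to 1.30 for 3 other probes), and Alas2, which starts heme synthesis in the erythroid lineage, at 0.35 and 1.96 (1.61). Globin copies are nearly identical, so a probe cannot be tied to 1 copy. Klf1, a transcription factor of red cell precursors, was not well above background on either array, and Gata1 lay at -2.99 on both. Fech, the last enzyme of heme synthesis, named after its value was seen, lay at 1.69 and 1.48 (-0.21).

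Mast cell and eosinophil genes were lower at 70 nmol. All 8 measured mast cell markers lay below the all-gene median, with a list median of -0.67 and a summed signal of 23.2 and 13.8. Relative to all genes that median was -0.38 with normexp, and the eosinophil median, -0.73, was also -0.38. The proteases Mcpt4 and Cma1 lay at 1.58 and 0.46 (-1.13, with -0.99 for a second probe) and at 3.09 and 2.31 (-0.78, with -0.47 for a second probe), and Cpa3 at 0.39 and -0.52 (-0.91). Kit, Fcer1a and Tpsb2, which define the type, were dim on both arrays, and Tpsab1 and Ms4a2 were on neither. All 6 measured eosinophil markers lay below the all-gene median too. Rnase2a, a granule ribonuclease, lay at 1.32 and 0.40 (-0.93) and Siglecf at -1.51 and -2.60 (-1.09, or -0.48 with normexp), while the granule genes Prg2 and Epx were on neither array. Alox15, on this list and on that of large macrophages, made up most of the summed eosinophil signal of 74.7 and 29.0. That sum also includes 1 member detected at 35 nmol only. Mcpt4 differed by -0.95 with normexp.

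Neutrophil and lymphoid markers gave no common direction. S100a9, a subunit of the antimicrobial protein calprotectin, lay at 1.11 and 3.37 (2.26, 4.80-fold), with its probe on chromosome 3 from 90778590 to 90778649 (mm8). Its partner S100a8, chosen after its value was seen, lay at -0.31 and 0.049 (0.35), Retnlg at 0.39 and -0.56 (-0.95) and Mmp9 at -1.41 and -2.15 (-0.74). Camp, Ngp, Ltf and Elane were on neither array. B cell markers had a median of -0.22 over 15 genes, with Bank1 at 2.71 and 2.12 (-0.59) and Cd72 at 1.38 and 2.02 (0.64). Immunoglobulin transcripts were higher, with the heavy chain locus Igh at 3.16 and 4.62 (1.46) and 0.70 to 1.76 for 5 other probes, and the joining chain Jchain at 1.37 and 2.44 (1.07). T cell markers had a median of 0.13 over 16 genes.

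In the lists tied to metals and oxidants, none of the 18 measured genes of metallothioneins and zinc transport, of 28 NRF2 targets and antioxidant genes, or of 19 genes of iron and heme handling was 2-fold higher or lower, where 0.92% and 0.718% of all measured genes were, so a count of 0 is near the background. The metallothioneins Mt1 and Mt2, which bind metal ions, lay at 4.32 and 3.96 (-0.36) and at 3.94 and 3.56 (-0.39). Hmox1, heme oxygenase, lay at 5.03 and 5.71 (0.68), while the glutathione transferases Gstm1 and Mgst1 lay at 4.34 and 3.64 (-0.70) and at 4.45 and 3.71 (-0.74). In the iron list Steap3, a ferric reductase, lay at -2.47 and -1.49 (0.98, or 0.46 with normexp), and Trf, transferrin, which also stands on the hepatocyte list, at 6.35 and 5.53 (-0.83). Some members were detected on 1 array only. Slc7a11 was at least 4.61-fold higher at 70 nmol, while Gsta3, a glutathione transferase, Hpx, the heme-binding hemopexin, and Slc13a4, a sulfate carrier, were at least 9.25-fold, 8.12-fold and 3.80-fold lower there, the last 3 named after their values were seen. Nqo1, a quinone reductase controlled by NRF2, was not well above background on either array. Among the sulfate and anion exchangers, the family of carriers that chromate uses, 7 were measured with a median of 0.19, and Slc26a11 and Slc26a6 differed by 0.31 and 0.29.

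The DNA damage response showed no common direction. Of 37 measured p53 targets and apoptosis genes 23 lay above the all-gene median, and the list median was 0.11. Among the 37, 1 was 2-fold higher, against 0.92% of all measured genes. That gene, Perp, a membrane protein of apoptosis, lay at 0.80 and 1.84 (1.04, or 0.93 with normexp). Cdkn1a, the cell cycle inhibitor p21, lay at 2.78 and 3.04 (0.26) and Gadd45a, a stress sensor, at -0.45 and -1.03 (-0.58). Of 44 measured DNA repair genes 14 lay above the all-gene median and 30 below, and the list median was -0.076. None was 2-fold higher or lower, where 0.92% and 0.718% of all measured genes were, so this count is near the background. Ogg1, the glycosylase for oxidised guanine, lay at -1.33 and -0.67 (0.66, with 1.01 for a second probe).

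Heat shock genes were mostly higher by small amounts, and early response genes lay on both sides. Of 18 measured heat shock chaperones 14 lay above the all-gene median, with a list median of 0.20. Hspa1a, the inducible Hsp70, lay at 1.64 and 2.57 (0.93), and the small chaperone Hspb1 at -1.60 and -0.67 (0.93, or 0.55 with normexp). Hspa13 lay at 0.57 and 1.63 (1.06), but a second probe differed by 0.33. The AP-1 genes Fos and Jun lay at -1.26 and -0.36 (0.90, or 0.55 with normexp) and at 1.12 and 1.85 (0.72). Of the 20 measured early genes 12 lay above the all-gene median, the list median was 0.12, and Egr1, an early zinc finger factor named after its value was seen, lay at 1.27 and 0.82 (-0.46). Chac1, which breaks down glutathione under stress, lay at -0.65 and -1.38 (-0.73), and the 23 measured Atf4 targets had a median of 0.0002.

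Genes of cell division were lower by small amounts. Of 26 measured G2/M genes 3 exceeded the all-gene median and the median was -0.28, and of 29 measured G1/S genes 5 lay above it, with a median of -0.12. Kif11, a motor of the mitotic spindle, lay at -1.55 and -2.62 (-1.08, or -0.57 with normexp), Nusap1, of the spindle, differed by -0.54 and the cyclin Ccna2 at 2.85 and 2.42 (-0.42). The letters TTTGAA, the core of the cell cycle homology region, stood in 15 of the 22 G2/M promoter windows (68.2%), against 14.4% of all measured genes and 12.0% of the G1/S windows. G2/M genes with these letters had a median of -0.30 (15 genes) and those without -0.27 (7 genes). In the CDK inhibitor list Cdkn2b lay at 0.24 and -0.33 (-0.57) and Cdkn2c at 1.91 and 1.38 (-0.54).

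Ribosomal protein and proteasome genes showed small differences shared by most members. All 22 measured ribosomal protein genes lay below the all-gene median, with a median of -0.14, and 29 others were saturated. Rpl3 lay at 6.84 and 6.57 (-0.27). Of 31 proteasome subunits 29 lay above the all-gene median, with a median of 0.14, and Psmd8 lay at 2.85 and 3.21 (0.36). None of either list differed 2-fold, where 0.92% of all measured genes were higher and 0.718% lower by that much, so this is near the background. The respiratory chain (36 genes) and the mitochondrial ribosome (32 genes) had medians of 0.0008 and 0.0042, with 18 and 16 members above the all-gene median. Of the lipoate-dependent dehydrogenases, Dlst differed by 0.33.

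Lipid genes held differences in both directions. Fabp4, a fatty acid carrier, lay at 4.55 and 2.55 (-2.00, with -2.03 for a second probe), and Lpl, lipoprotein lipase, at 5.72 and 5.04 (-0.68). Both also stand on the adipocyte list, where all 7 measured members lay below the all-gene median. The summed signal of that list was 85.2 and 46.6, and Fabp4 and Lpl made up most of it. That sum includes 2 members detected at 35 nmol only. The defining genes Adipoq and Lep were not well above background on either array, and the part of adipocytes in this result was not tested. Fabp3, of the same family as Fabp4, lay at -0.0065 and 1.04 (1.05, or 0.86 with normexp), and the oxysterol receptor Nr1h3 at 1.60 and 2.45 (0.86). Ptgis, prostacyclin synthase, differed by -0.89. Of the clock genes, Dbp lay at 4.06 and 4.56 (0.51), and Per2 at -2.43 and -1.29 (1.13), whose second probe differed by -0.060.

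Several of the largest differences lay outside these groups. Ms4a4d and Ms4a4c, membrane proteins of a tetraspan family, lay at -0.68 and 0.81 and at 1.30 and 2.74 (1.43), and Hal, histidine ammonia lyase, at 4.94 and 6.27 (1.33). Serping1, which inhibits complement C1, lay at -0.47 and 0.95 (1.42). On the lower side, Cd209b, a lectin of the DC-SIGN family, lay at 2.48 and 0.60 (-1.87, with -1.78 for a second probe), the chloride carrier Slc12a5 at 2.25 and 0.85 (-1.40) and Cables1 at 3.12 and 1.86 (-1.26). Actl9 and Mgp, named after their values were seen, had larger differences of 2.74 and 2.56, but both were dim at 35 nmol, at -3.03 and -2.81.

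**Figure D5:**
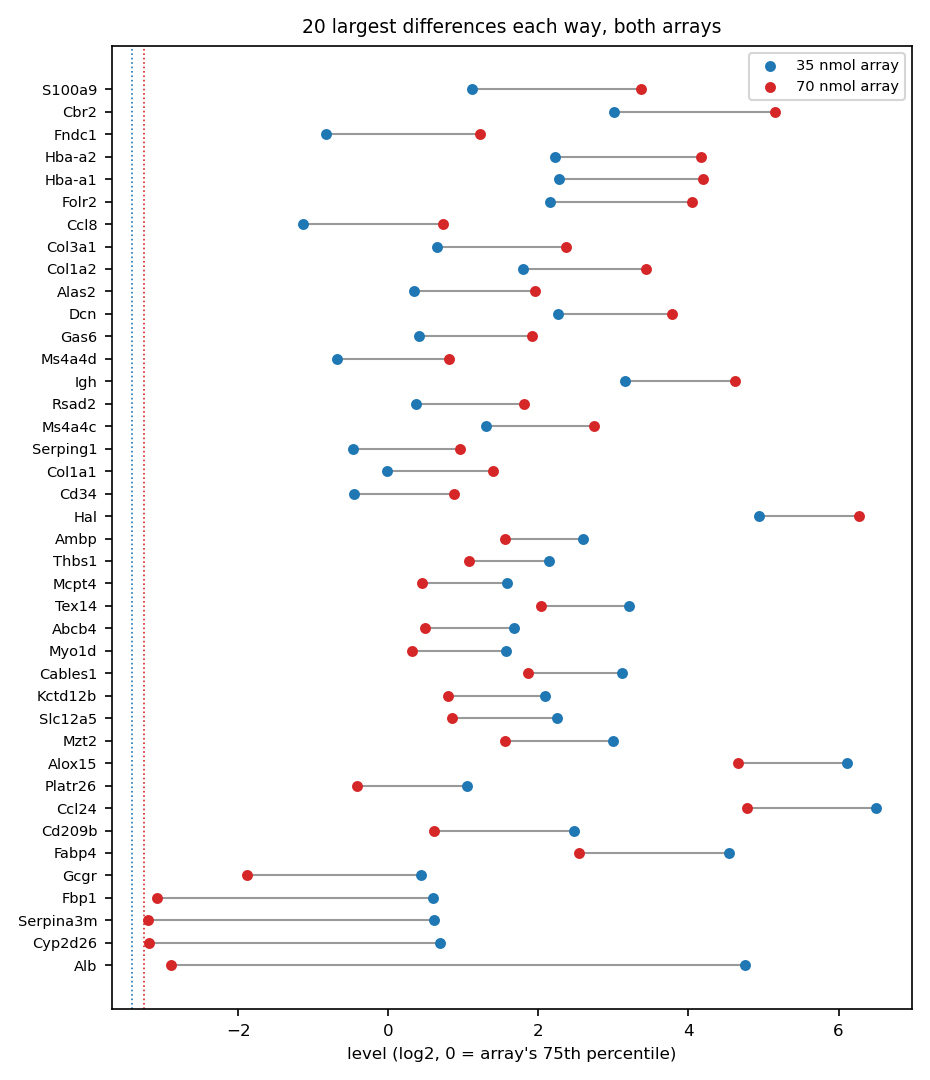
Levels (x axis, log2, 0 is the 75th percentile of an array) on the 35 nmol array (blue) and the 70 nmol array (red) of the 20 genes with the largest differences each way under the naming rule, with dotted lines at each array's lowest detected level. S100a9 and Cbr2 lie well right of these lines on both arrays, while the red points of Cyp2d26, Serpina3m and Fbp1 lie next to them.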

How the data were processed

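Both arrays were read with Agilent Feature Extraction 10.5.1.1, per the file headers, and the intensity used was the deposited processed signal, which the software had background-subtracted and detrended but not scaled between arrays. Here log2 was taken, the 75th percentile of the non-control spots was subtracted for each array, outlier spots were left out and spots of a probe were averaged. A gene was read from its brightest probe and was measured if that probe passed the software's well-above-background call on each array with no saturation. Names came from RefSeq by accession for 24375 probes, by symbol for 6301, by synonym for 2426, and from the file for 8072. Probe positions are on build mm8, per the file headers. The deposited table holds log2 values that, per array, equalled the processed signal minus a constant of 7.61 (35 nmol) or 7.67 (70 nmol), within 0.01 for 99.8% and 99.9% of probes, and it served as an alternative. How those constants were chosen is not given in the sources used here.

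No test was run. The compared genes and the 69 gene lists were chosen with earlier results of these data known. Named genes were the 20 with a RefSeq symbol each way with the largest difference, a brighter level at or above the median detected probe and agreeing probes, up to 4 members a list with the largest difference and those its name turns on, the 10 each way with the largest bound (limited here to genes with a RefSeq symbol, which left out larger bounds of genes without one), and a short fixed list. Alternatives covered background correction, normalization and scaling, the filter, the probe rule, the threshold and the background call. The counting was tested on simulated data (12390 genes), where 49 of 50 genes at 2.5-fold and 3 of 12190 unchanged genes passed 2-fold. The simulated noise was the scanner's own spot error alone, without any spread between animals or labellings. These rates therefore check the counting steps and do not tell how many of the 2-fold genes differ by dose. Python 3.11.15, pandas 2.3.3, R 4.3.3 and limma 3.58.1 were used.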

Additional observations from a re-analysis of the deposited data

How the results depend on the processing

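No paired analysis was possible because each dose has 1 array, and for the same reason no array could be left out. The counts of 2-fold genes (114 higher, 89 lower) were 39 and 20 with normexp background correction, 59 and 26 when dim probes were filtered more strictly, and 377 and 479 with the looser filter, where genes detected on 1 array enter and the lower side becomes the larger. At 1.5-fold they were 455 and 353, and at 3-fold 21 and 19. Quantile and loess normalization, scaling on detected probes or spike-ins, the mean of a gene's probes and the deposited values kept both counts within 1.5 times, from 109 to 129 higher and from 77 to 90 lower. By the weaker background call 1330 genes in place of 470 were on the 70 nmol array only, and 1872 in place of 687 on the 35 nmol array only. Of the 203 genes that differed 2-fold, 58 kept that size with normexp, and none changed sign under an alternative that measured it. Scaling on the spike-ins moved the median of all genes from 0.0019 to 0.052. Leaving out all cell type lists, a choice made after seeing the data, gave 99 and 77. Signal over background limits the dim genes: 39 of the 114 higher and 41 of the 89 lower genes had their dimmer level within 1 log2 unit of the floor.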
